A study of Mus musculus with 6 samples.

Results

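Crabp1, Crabp2, Aldh1a3 and Adh7 encode proteins that bind retinoic acid or act in its synthesis from retinol, and their levels were compared between wild-type and CypD knockout mouse embryonic fibroblasts. The genes were chosen by name, as the probes whose single annotated symbol is one of these 4. This gave 4 probes, 1 per gene, of 45281 on the array and 4 of 7606 named genes. The choice was made with the difference between the genotypes known, so their values in that comparison are a description and carry no test.

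There were 6 arrays, 3 from wild-type cells and 3 from cells without cyclophilin D (CypD), a prolyl isomerase of the mitochondrial matrix whose gene is Ppif. Both groups were fibroblast cultures from E13.5 embryos of C57BL/6 background, grown in medium with 10% serum, per the labels, which name no treatment and do not say how the deletion was made. Total RNA (250 ng) was labelled with biotin and read on Illumina bead arrays. The labels name the replicates A, B and C without saying whether these were separate embryos, litters or cultures, so the spread between arrays may be technical.

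Retinol, taken up from serum, is oxidised to retinaldehyde by alcohol and retinol dehydrogenases, and retinaldehyde is oxidised to retinoic acid by the ALDH1A enzymes. Retinoic acid enters the nucleus and activates the receptors RAR and RXR, and CYP26 enzymes break it down. Adh7 is a class IV alcohol dehydrogenase that also oxidises retinol, Aldh1a3 makes retinoic acid from retinaldehyde, Crabp2 carries retinoic acid toward its nuclear receptors, and Crabp1 holds it in the cytosol. In the embryo these steps pattern the body axis, limbs, eye and face, and connective-tissue cells take part in them.

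The array medians of the deposited intensities lay between 223 and 251, and the 6 arrays correlated at 0.992 to 0.994 within groups and at 0.984 to 0.986 between them. Ppif, the targeted gene, read 13.57, 13.70 and 13.62 in wild type and 12.25, 12.35 and 12.18 in knockout on the normalized log2 scale. The groups did not overlap, and the knockout signal remained high, at the 93.6th percentile of all probes. The sources used here do not place its only named probe inside or outside the deleted part, and a probe outside it does not check the deletion itself. Fibroblast markers were bright by Col1a1 and Fn1, at the 98.3rd and 96.2nd percentiles of all probes in wild type, and low by Vim and Dcn, at the 67.6th and 64.0th. These 4 were picked out after their values were seen.

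RefSeq promoter windows of GRCm38.p6, from 250 bases before to 50 bases after the transcript start, were held for 2 of the 4 genes, Crabp1 and Adh7. Both windows held are shown. These genes differed in opposite directions between the genotypes and their windows differ in composition, but a link between these was not tested. The Adh7 window is that of a start inside the annotated span of its gene, not at the first base of that span. Both lie on the plus strand, Crabp1 at chr9:54764498-54764797 and Adh7 at chr3:138217523-138217822. Capitals mark matches to any of 6 motifs searched on both strands.
Crabp1: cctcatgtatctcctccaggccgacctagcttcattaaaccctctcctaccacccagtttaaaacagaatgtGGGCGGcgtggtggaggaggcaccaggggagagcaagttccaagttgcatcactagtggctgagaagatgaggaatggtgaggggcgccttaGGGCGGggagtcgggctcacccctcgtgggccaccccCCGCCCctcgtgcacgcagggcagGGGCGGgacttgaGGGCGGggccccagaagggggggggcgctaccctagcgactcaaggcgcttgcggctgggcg
Adh7: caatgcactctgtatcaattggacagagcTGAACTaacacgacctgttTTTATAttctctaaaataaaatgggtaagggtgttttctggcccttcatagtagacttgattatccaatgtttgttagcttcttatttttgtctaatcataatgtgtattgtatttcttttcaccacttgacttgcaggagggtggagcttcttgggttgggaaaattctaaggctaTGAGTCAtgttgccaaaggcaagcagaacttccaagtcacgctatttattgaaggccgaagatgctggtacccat

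The Crabp1 window was GC-rich, with 65.0% G or C and 17 CpG dinucleotides, against medians of 52.7% and 7 over 32851 windows of the same length. It held 5 copies of GGGCGG, the GC box bound by Sp1, which 35.7% of all windows hold at least once. The Adh7 window had 39.3% G or C and 3 CpG dinucleotides. It held 1 AGTTCA, a form of the nuclear receptor core motif (14.0% of windows), 1 TATAAA on the minus strand, 202 bases before the start (13.6% of windows), and 1 TGAGTCA, the AP-1 site, 25 bases before the start (5.2% of windows). The other form of that core, AGGTCA (16.3% of windows), and the antioxidant response element core TGACNNNGC (12.4% of windows) had no match in these letters of either gene. No 2 matches overlapped.

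Adh7 had the largest difference of the 4. Its deposited intensities were 2729, 2581 and 2716 on wild-type arrays A, B and C and 277, 301 and 279 on the knockout arrays. On the normalized log2 scale these were 11.24, 11.25 and 11.38 against 7.54, 7.75 and 7.57. All wild-type arrays were high, all knockout arrays were low, and the groups were 3.49 apart at their nearest arrays. The means were 11.29 ± 0.075 and 7.62 ± 0.12 (SD, n = 3 each), a log2 fold change of -3.67 ± 0.09 (SE, limma), or 12.7-fold lower in knockout. By size of change it was the 9th of 7605 tested named genes in either direction. The knockout signal lay at the 64.6th percentile of all probes, and since the files give no detection p-value, it is not known whether it stood above background.

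Aldh1a3 was lower in knockout too. Its deposited intensities were 813, 867 and 747 in wild type and 268, 238 and 257 in knockout. The normalized log2 values were 9.37, 9.56 and 9.42 against 7.47, 7.23 and 7.38, again without overlap. The means of 9.45 ± 0.098 and 7.36 ± 0.12 (SD, n = 3 each) differed by -2.09 ± 0.10 (SE), or 4.25-fold. The knockout mean was at the 58.7th percentile, where the same limit applies. This probe is annotated to a cDNA clone, whereas the other 3 are annotated to RefSeq transcripts.

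Crabp2 was lower in knockout by nearly the same amount. The deposited intensities were 1285, 1303 and 1338 in wild type and 365, 327 and 352 in knockout. Normalized, these were 10.09, 10.22 and 10.32 against 8.09, 7.92 and 8.03. Every wild-type array stood above every knockout array. The means of 10.21 ± 0.11 and 8.01 ± 0.088 (SD, n = 3 each) gave a log2 fold change of -2.20 ± 0.09 (SE), or 4.59-fold lower.

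Crabp1, the other cellular retinoic acid-binding protein, went the opposite way. Its deposited intensities were 289, 277 and 284 in wild type and 795, 787 and 774 in knockout. The normalized log2 values were 7.44, 7.45 and 7.66 against 9.47, 9.50 and 9.41, so that here the knockout arrays were the high ones. The means were 7.52 ± 0.12 and 9.46 ± 0.046 (SD, n = 3 each), a log2 fold change of 1.94 ± 0.10 (SE), or 3.85-fold higher in knockout. The wild-type signal lay at the 62.6th percentile, so the limit given for Adh7 applies to the wild-type side of this gene.

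In all 4 genes the groups did not overlap. Groups of 3 arrays did not overlap in 56.1% of the 7605 tested named genes, and since the members were chosen for this contrast, nothing is read from their count. All 4 probes passed the filter at the 40th percentile, and their dimmer group means also lay above that percentile. The SDs within groups ran from 0.046 to 0.12 on the log2 scale, against a median of 0.12 for tested named genes. Among the knockout arrays, B read lowest for Crabp2 and Aldh1a3 and highest for Crabp1 and Adh7, within ranges of at most 0.24. Among wild-type arrays, C read highest for Crabp1, Crabp2 and Adh7, and B for Aldh1a3.

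**Figure D1:**
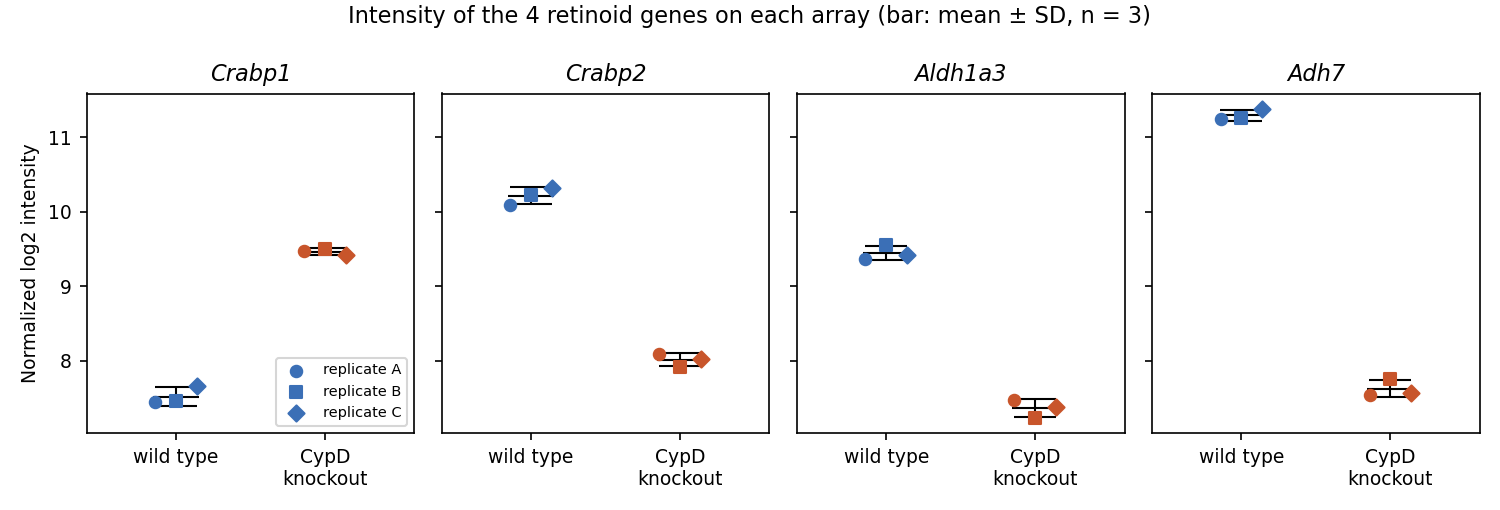
Normalized log2 intensity of Crabp1, Crabp2, Aldh1a3 and Adh7 on each of the 6 arrays, with symbols for replicates A, B and C, and bars for the mean ± SD of 3 arrays. The genotypes do not overlap for any of the 4 genes, and Crabp1 is the one that is higher in knockout.

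**Figure D2:**
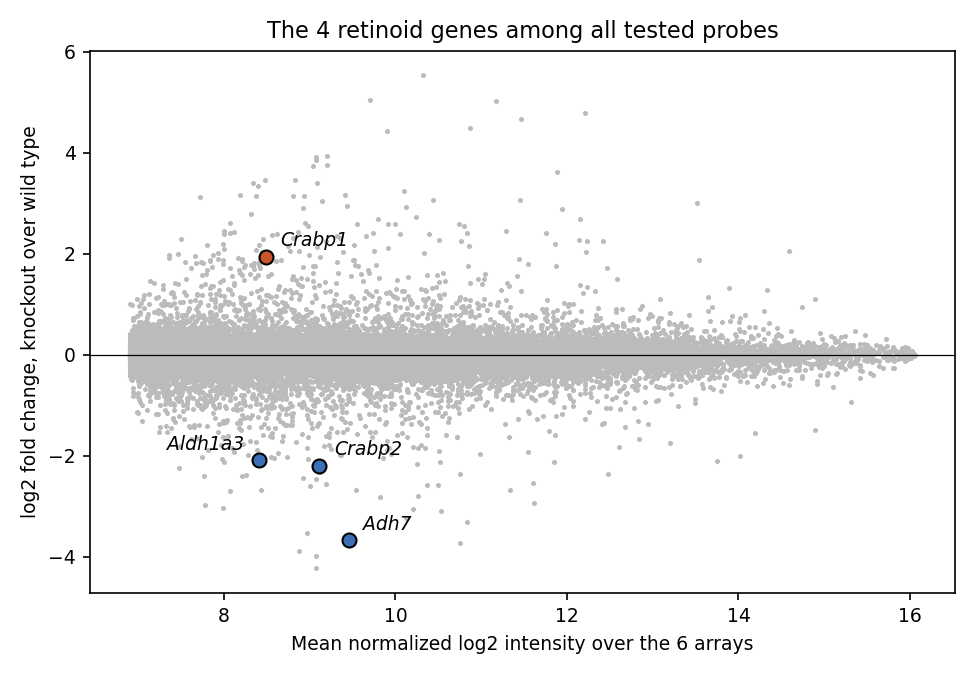
Log2 fold change (knockout over wild type) against mean normalized log2 intensity for the 27168 tested probes in grey, with the 4 retinoid genes marked. Adh7 lies at -3.67, Crabp2 and Aldh1a3 at -2.20 and -2.09, and Crabp1 at 1.94.

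The authors' processed table gave the same order. It lists Adh7 at 2490, 2508 and 2726 in wild type and 276, 306 and 280 in knockout. It lists Crabp1 at 264, 265 and 292 against 796, 815 and 771. Fold changes from that table were smaller in size, at -3.16 for Adh7, -1.86 for Crabp2, -1.63 for Aldh1a3 and 1.54 for Crabp1 on the log2 scale. A fit to the intensities without background correction gave -3.16, -1.86, -1.61 and 1.52 in the same order. A smaller offset of 16 widened them to -3.92, -2.36, -2.35 and 2.17. The directions were kept under each of these settings.

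**Figure D3:**
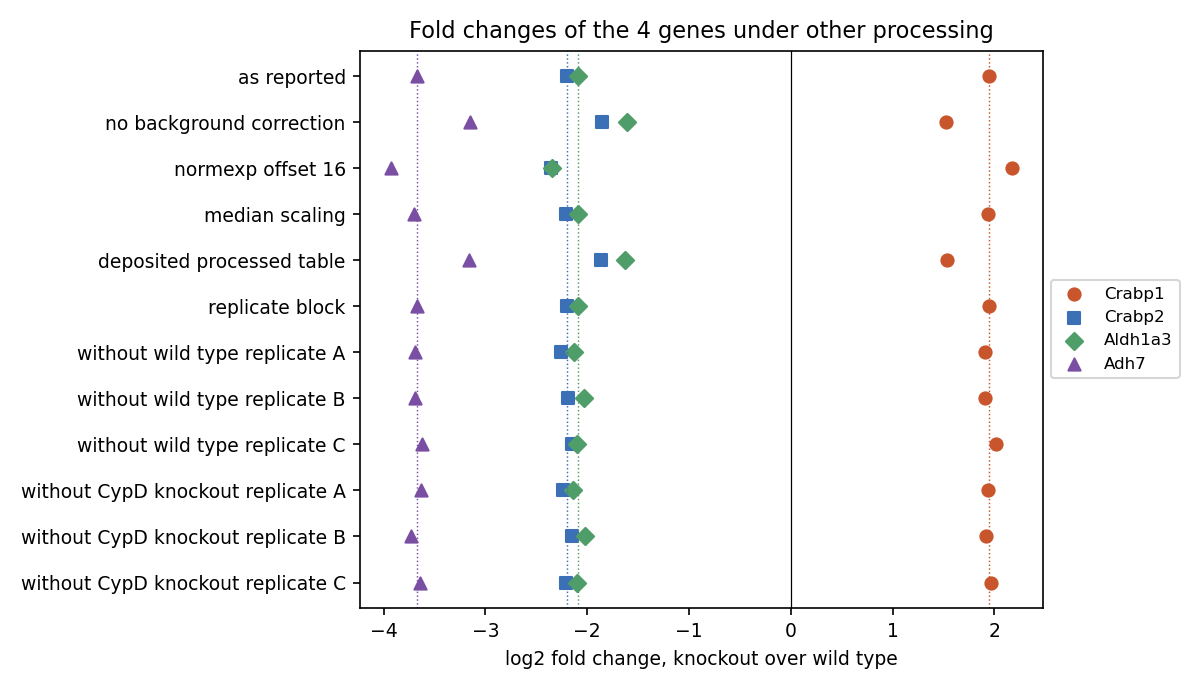
Log2 fold change (knockout over wild type) of the 4 genes under each processing setting, with dotted lines at the values as reported. Leaving out any 1 array moves the points little, while the background correction and the offset move all 4, to -3.92 for Adh7 at the largest.

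Genes of like pattern were found by the root mean square difference of mean-centred log2 profiles over the 6 arrays, among 7604 other named genes. Crabp2 and Aldh1a3 were near one another, at 0.092, which made each the other's nearest or second nearest gene. Coch, which encodes the extracellular protein cochlin, was nearest to Aldh1a3 at 0.090 and second to Crabp2 at 0.10, with a log2 fold change of -2.07 ± 0.09. The third places went to Aqp1, a water channel, for Crabp2 (0.11) and to Fhl1, a LIM-domain protein, for Aldh1a3 (0.10). For Crabp1 the nearest were Mkrn3, a makorin ring-finger gene, at 0.064, Dusp4, a MAP kinase phosphatase, at 0.066 and Cdc42ep1, an effector of Cdc42, at 0.071. For Adh7 they were Hoxc10 (0.17), the pseudogene Gpr137b-ps (0.18) and the interferon-inducible Ifi202b (0.20). With 2 groups this measure reflects mostly the difference between the genotypes.

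Beyond the 4 genes, 62 others of retinoid uptake, oxidation, binding, breakdown and reception were listed, and 21 were both named and tested. Of these 21, 6 rose, 4 fell and 11 did not pass (limma, adjusted p under 0.05), or 47.6% called with a median log2 fold change of 0.04. Over all tested named genes 43.6% were called, 21.8% upward and 21.8% downward, with a median of 0.01, and over all tested probes 20.0% were called. The share among the 21 was thus near the background. Without Cyp26b1, which lay under the 40th percentile in wild type and passed the filter through its knockout signal, 9 of 20 were called (45%). Named probes come from the authors' processed table, in which every probe's highest value over the 6 arrays was at least 1.2 times its lowest, so 43.6% is the matching background. Without wild-type array A, 6 of the 21 were called, and the calls among all 27168 tested probes fell too, from 5423 to 4388.

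Of the 19 other listed enzymes that oxidise retinol or reduce retinal 9 had a tested name, and 2 rose, 1 fell and 6 did not pass, or 33.3% called against 43.6% of all tested named genes. Rdh10, the retinol dehydrogenase needed for retinoic acid synthesis in embryos, fell from 7.93 ± 0.083 to 7.46 ± 0.021 (log2 fold change -0.47 ± 0.10, limma adjusted p = 0.0033). Its signal lay at the 68.8th percentile in wild type and the 61.4th in knockout, where background is not separated from expression. Rdh14 and Rdh11, retinal reductases in membranes, rose by 0.32 ± 0.09 and 0.22 ± 0.07 (limma adjusted p = 0.018 and 0.0368). The Rdh11 call ended under median scaling (limma adjusted p = 0.138), without the filter (0.052) or the intensity trend (0.113), and without wild-type array A or B or knockout array B or C (0.11, 0.0627, 0.165 and 0.116). That of Rdh14 ended without wild-type array A, knockout array A or knockout array C (limma adjusted p = 0.064, 0.0876 and 0.0581). Adh5, the broadly expressed class III member of the Adh family, read 11.45 ± 0.22 and 11.36 ± 0.20 and did not pass (-0.10 ± 0.11, limma adjusted p = 0.647). Rdh5, Rdh12, Rdh16, Dhrs4 and Dhrs7 did not pass either, with log2 fold changes from -0.20 to 0.19, though Dhrs4 passed without wild-type array C (limma adjusted p = 0.0339). Rdh12 and Rdh16 were dim in wild type (65.7th and 57.6th percentiles) and in knockout (65.8th and 56.9th). A lack of difference in them may be a lack of signal. A second, dimmer Dhrs7 probe passed at -0.27 (limma adjusted p = 0.0439).

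Among genes of breakdown and uptake, Cyp26b1, which hydroxylates retinoic acid, rose from 6.87 ± 0.38 to 7.40 ± 0.17 (0.53 ± 0.17, limma adjusted p = 0.0369). Its groups overlapped, and its wild-type signal was at the 35.0th percentile, so that it passed the filter through the knockout arrays alone and its count among the rises is no support. The call ended without wild-type array A or B or knockout array B or C (limma adjusted p = 0.119, 0.158, 0.165 and 0.0732) and without the intensity trend (0.0637). Cyp26a1, the related enzyme, did not pass (-0.17 ± 0.12). Its signal was dim in wild type and knockout (62.8th and 58.4th percentiles), so a lack of difference may be a lack of signal. Of the 14 genes of uptake and storage 1 had a tested name, Lpl, a lipoprotein lipase that frees retinol from circulating esters among other lipids. It rose by 2.09 ± 0.12 (limma adjusted p = 2.06e-08), from a wild-type signal at the 41.2nd percentile, where background is not separated from expression, and its log2 fold change ran from 1.51 without background correction to 2.46 with an offset of 16. The remaining aldehyde dehydrogenases of the ALDH1A class and Fabp5, the other listed carrier, had no tested probe with a name and were not analysed here.

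Of 9 tested receptors and cofactors 2 rose, 3 fell and 4 did not pass, or 55.6% called against the 43.6% of all tested named genes. Rarg, the retinoic acid receptor gamma, fell from 10.52 ± 0.029 to 10.10 ± 0.0078 (-0.42 ± 0.07, limma adjusted p = 0.000929), while a second, dimmer Rarg probe did not pass (-0.11, adjusted p = 0.626). Ppard, a lipid receptor also reported to respond to retinoic acid, fell by 0.48 ± 0.07 (limma adjusted p = 0.000252). Ep300, a histone acetyltransferase and coactivator, fell by 0.51 ± 0.09 (limma adjusted p = 0.00138), with a second probe that did not pass (-0.29, adjusted p = 0.0865). Nr2f2, the orphan receptor COUP-TFII, rose 3.10-fold, from 8.51 ± 0.13 to 10.14 ± 0.26 (1.63 ± 0.12, limma adjusted p = 2.69e-07). Rorb, a retinoid-related orphan receptor, rose by 0.35 ± 0.11 (limma adjusted p = 0.0358), a call that ended without wild-type array A or C or knockout array A or B (adjusted p = 0.0714, 0.088, 0.0895 and 0.154) or without the filter (0.0512). The receptor partners Rxra and Rxrb (0.08 ± 0.12 and 0.04 ± 0.16), the orphan receptor Nr2f6 (0.16 ± 0.08) and the coactivator Crebbp (-0.04 ± 0.15) did not pass. Rxra and Rxrb were dim in wild type (68.2nd and 60.6th percentiles) and in knockout (69.1st and 62.2nd). Their lack of difference may be a lack of signal. A second, dimmer Rxrb probe did not pass either (-0.33, limma adjusted p = 0.0873).

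**Figure D4:**
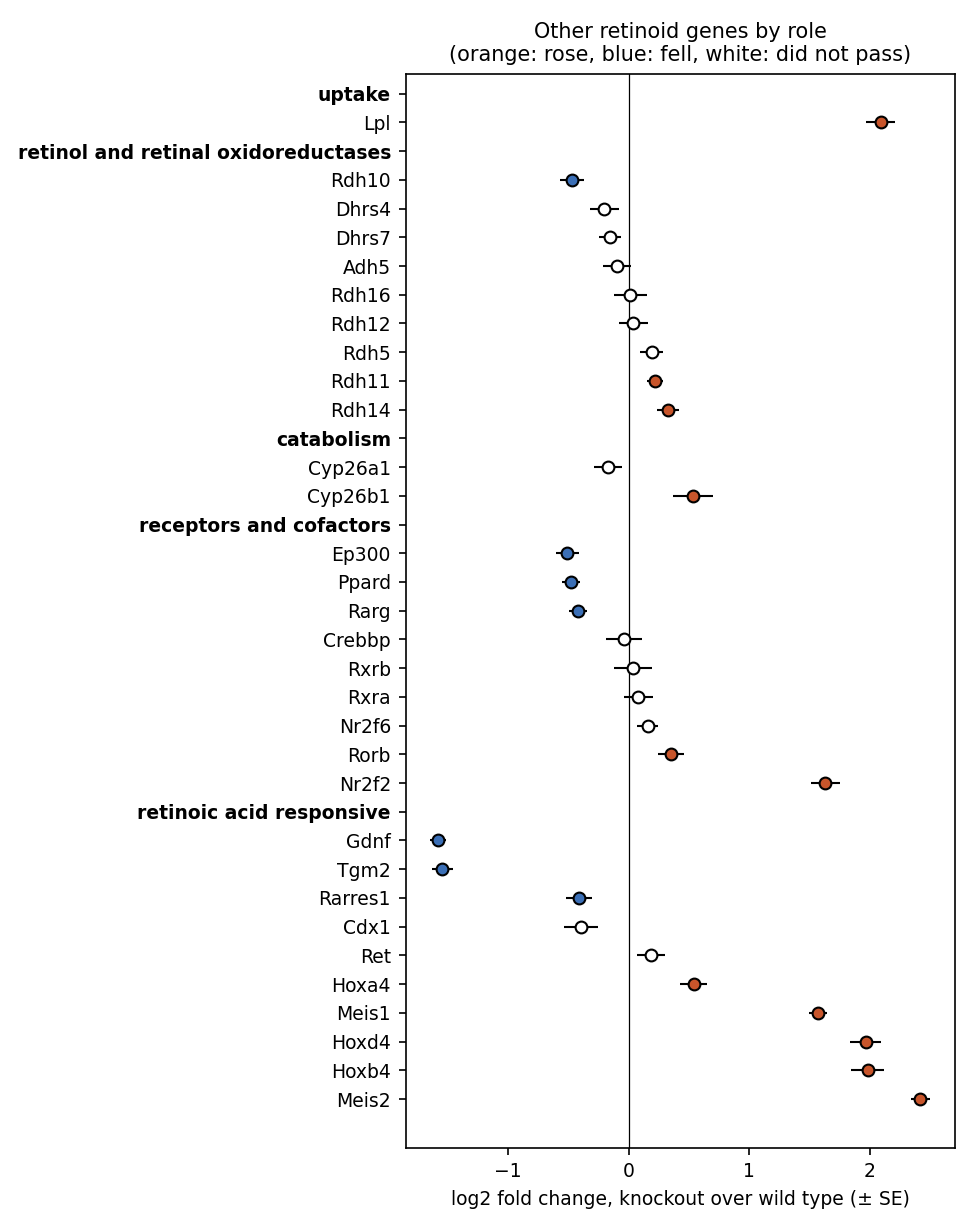
Log2 fold change (knockout over wild type) ± SE (limma, 3 arrays per group) of the other listed retinoid genes, ordered by role; orange points rose, blue points fell and white points did not pass. Most oxidoreductases lie near 0, some of them with dim signals in both groups. The wide differences are those of Lpl, Nr2f2 and retinoic acid responsive genes from -1.58 for Gdnf to 2.42 for Meis2. Genes of 2 lists are drawn once.

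Genes known to respond to retinoic acid changed in both directions. Without Crabp2, which also belongs to them, 29 were listed and 13 had a tested name. Of these 7 rose, 3 fell and 3 did not pass, or 76.9% called with a median of 0.53, against 43.6% and 0.01 for all tested named genes. Between 8 and 11 of the 13 were called when any 1 array was left out. The list shares Nr2f2, Cyp26a1 and Cyp26b1 with those above. Its Hox and Meis genes were known to differ when it was written, and the 5 of them that were tested all rose. Without them 2 of 8 rose, 3 fell and 3 did not pass (62.5% called), with a median of -0.28, so the upward median rests on those 5. The other genes were also listed with earlier results of these data known, so neither share is read as support. Without Cyp26b1 and Hoxd4, which lay under the 40th percentile in wild type, 8 of 11 were called, 5 upward, with a median of 0.19.

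The rises were led by Meis2, a homeobox cofactor of limb and trunk patterning, from 10.55 ± 0.077 to 12.97 ± 0.12 (2.42 ± 0.08, limma adjusted p = 4.63e-11). All 4 Meis2 probes were called upward. The dimmest of them in wild type read 6.84 there, below Cyp26b1 at 6.87, and passed the filter through the knockout arrays. The call of that probe is no support. Meis1, the partner gene of Meis2, rose 2.97-fold (1.57 ± 0.08, limma adjusted p = 2.92e-09), although 1 of its 3 probes did not pass (0.15, adjusted p = 0.487). The paralogous Hox genes Hoxb4 and Hoxd4, which carry known retinoic acid response elements, rose by 1.98 ± 0.14 and 1.96 ± 0.13, and Hoxa4 by 0.54 ± 0.11 (limma adjusted p = 1.18e-07, 8.74e-08 and 0.00321). The wild-type signal of Hoxd4 was at the 24.4th percentile. It passed the filter only through the knockout arrays, so its call is no support and its fold is uncertain.

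The falls were those of Gdnf, a neurotrophic factor, from 12.65 ± 0.023 to 11.07 ± 0.030 (-1.58 ± 0.06, limma adjusted p = 5.2e-10), and of Tgm2, a transglutaminase induced by retinoic acid in many cells, from 10.85 ± 0.085 to 9.30 ± 0.11 (-1.55 ± 0.09, limma adjusted p = 1.46e-08). Rarres1, a gene named for its response to a retinoid, fell by 0.41 ± 0.11 (limma adjusted p = 0.0128), a call that ended without wild-type array B or knockout array B (adjusted p = 0.0598 and 0.0703). Ret, the receptor subunit for Gdnf, and Cdx1, a homeobox gene of the trunk, did not pass (0.19 ± 0.12 and -0.39 ± 0.14). Cdx1 passed without knockout array B (limma adjusted p = 0.00432) and Ret without wild-type array C (0.0377).

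The protein families of the 4 genes were compared beyond retinoids. Of 19 other aldehyde dehydrogenases 10 had a tested name, and 2 rose, 5 fell and 3 did not pass, with a median log2 fold change of -0.13 and 70% called against 43.6% of all tested named genes. The rises were those of Aldh2, a call that ended under 6 alternatives (limma adjusted p from 0.0507 to 0.17), among them leaving out wild-type array C or any 1 knockout array, and of Aldh6a1, which ended without knockout array B (0.0518). The fall of Aldh18a1 ended without the intensity trend, wild-type array A or knockout array A or B (0.0597, 0.0544, 0.0577 and 0.0904). Aldh1l2, the mitochondrial enzyme of folate metabolism, fell by 0.65 ± 0.07 (limma adjusted p = 1.39e-05), Aldh3b1 by 0.53 ± 0.09 (0.000475) and Aldh3a1, an enzyme of cornea and stomach, by 0.51 ± 0.11 (0.00544). The Aldh3a1 signal lay at the 68.0th percentile in wild type and the 58.5th in knockout, where background is not separated from expression. Aldh3a2, which oxidises fatty aldehydes, and Aldh5a1, of GABA breakdown, did not pass (0.07 ± 0.08 and 0.28 ± 0.09), though Aldh5a1 passed with the filter at the 70th percentile (limma adjusted p = 0.0371). Of 14 other lipid-binding proteins of the Crabp family 2 had a tested name. Fabp3, the heart fatty acid-binding protein, fell by 0.85 ± 0.11 (limma adjusted p = 4.48e-05), and Fabp6 did not pass (0.18 ± 0.11). The neighbours of Adh7 in the Adh cluster were not analysed here, apart from Adh5.

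Markers of other cell types were read beside these genes. Over all tested named genes 43.6% were called, 21.8% in each direction. No shift in cell type is read from the small counts below. Few of the markers had a tested name. Of 10 neural and glial markers 4 did, of which 3 fell and 1 did not pass, led by Stmn2, a microtubule regulator of neurons, and Mbp, a myelin protein (-2.79 ± 0.08 and -0.95 ± 0.10, limma adjusted p = 1.46e-11 and 6.42e-06). The summed level of these 4, in normalized intensity, was 5762 to 6440 in wild type and 1949 to 2045 in knockout. Stmn2 and Nes were the brightest of them in wild type (means of 11.66 and 11.17 on the log2 scale), so the sum mostly reflects those genes. Nes fell by 0.94 ± 0.10, and Dcx did not pass (-0.15 ± 0.14). Of 10 neural crest markers 5 were tested, 3 rose (Sox9, Tfap2b and Msx1) and 1 fell. The Msx1 call ended without any 1 array other than wild type C (limma adjusted p from 0.0627 to 0.119), and the Tfap2b call without wild-type array B or knockout array B (0.0696 and 0.092). Tfap2a, a transcription factor of crest and surface ectoderm, was 6.40-fold lower (-2.68 ± 0.09, limma adjusted p = 5.75e-11), like Crabp2, Aldh1a3 and Adh7, while Sox9 rose by 1.10 ± 0.08, and the summed level was 10025 to 10963 against 14812 to 16457. Without Sox9 the sum of the other 4 was 4147 to 4728 in wild type and 2667 to 2739 in knockout, so the direction of the sum is that of Sox9. Their part in the differences of the 4 genes was not tested, and in bulk RNA fewer cells of a type cannot be told apart from less RNA per cell.

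Of the remaining marker lists, epithelial markers (3 of 10 tested) had 1 rise, that of Spint1, and 1 fall, that of Krt19, a call that ended without wild-type array A or knockout array A or C (adjusted p = 0.058, 0.0777 and 0.0783). Their summed level was 1372 to 1425 in wild type and 1822 to 1935 in knockout. The direction of this sum is that of Spint1 (0.78 ± 0.08), since Krt19 fell by 0.35 ± 0.10 and Cdh1 did not pass (-0.09 ± 0.13). A second, dimmer Spint1 probe did not pass (0.23, limma adjusted p = 0.376). Endothelial markers (2 of 8) had 2 rises, Flt1 and Eng, with 1518 to 1688 against 2139 to 2239. Of 2 tested leukocyte markers limma called 0, with 2 at an unadjusted p under 0.05. Cd14 passed without wild-type array B (limma adjusted p = 0.0456) and Coro1a without wild-type array C (0.00711), and their sums overlapped at 864 to 1066 against 879 to 902. Skeletal muscle markers (2 of 6) had 1 fall, that of Acta1, and the 1 tested erythroid marker of 6 did not pass. Of 11 fibroblast markers 9 were tested, 3 rose and 4 fell, or 77.8% called against 43.6% of all tested named genes. The fall of Col1a2 ended without wild-type array A or knockout array B (limma adjusted p = 0.0511 and 0.0678). Fn1 did not pass by its brightest probe, but passed upward without knockout array B (limma adjusted p = 0.0207). A dimmer Fn1 probe was called upward at 0.39 (limma adjusted p = 0.007). The calls were led by S100a4 (-1.62 ± 0.10) and Col3a1 (1.13 ± 0.08), and the sums were 36463 to 37570 against 27798 to 32296. These sums are weighted by bright genes such as Col1a1, which fell by 0.63 ± 0.06 from the 98.3rd percentile. Col3a1, Pdgfra and Pdgfrb rose, so no loss shared by all the markers is read from the sums.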

How the data were processed

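Linear probe intensities were deposited by the authors in a separate table for each array, and a processed intensity table covers 12534 probes. The submitters' processing notes name BeadStudio 3.0, and further steps of theirs are not known here. The per-array intensities were corrected for background with normexp (offset 50), log2-transformed and then quantile-normalized (limma 3.58.1, R 4.3.3). Probes with a mean above the 40th percentile, 27168 of 45281, entered lmFit and eBayes, the latter with trend. P-values were adjusted over these probes by the Benjamini-Hochberg method, and a call means an adjusted p under 0.05. A gene was represented by its probe of highest mean intensity. Only probes of the processed table carry gene names here, and current symbols came from the RefSeq table of GRCm38.p6.

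The members and gene lists were chosen with earlier results of these data known, so a share of calls above the background in a list is no support. The named genes were the 4 members, the retinoid list genes, the leading cell type markers, Ppif, and the 3 genes nearest each member in pattern. For the aldehyde dehydrogenase and lipid-binding families, examples were the called genes of lowest p and the brightest that did not pass. The procedure was tested on simulated data. Alternatives changed the background correction, offset, scaling, filter, variance model, source table, block, probe and arrays.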

Additional observations from a re-analysis of the deposited data

How the results depend on the processing

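The 4 retinoid genes kept their direction in every alternative run for them. Their log2 fold changes moved by more than the spread between arrays under 3 alternatives. Without background correction they were 1.52 for Crabp1, -1.86 for Crabp2, -1.61 for Aldh1a3 and -3.16 for Adh7. In the deposited processed table they were 1.54, -1.86, -1.63 and -3.16, and with an offset of 16 they were 2.17, -2.36, -2.35 and -3.92; a larger offset compresses dim signals by its construction. Of the 21 other retinoid genes 10 were called, 6 of the 12 still tested at the 70th percentile, and 6 to 10 when 1 array was left out, the lowest without wild-type array A. The count of called probes, 5423, stayed within 1.5 times under each alternative, as did that of retinoic acid responsive genes, 10, except that 5 were called without the Hox and Meis genes, a count of fewer genes by construction. That count and those without genes under the 40th percentile in 1 group, 9 and 8, were added after the data had been seen. With the replicate block 5273 probes and 10 and 10 list genes were called, and every list gene kept its call. Deviations from the group means correlated at 0.10, -0.09 and 0.08 between arrays of the same letter, and not every array correlated best with its own letter, so the letters were not taken to pair arrays. Of 71 list and marker genes, 12 lost their call and 9 gained one under at least 1 of 15 alternatives. Without detection p-values, the dim side of each member limits its fold. Groups of 3 arrays limit the precision.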

Other observations

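The genes beside the 4 on their chromosomes were read from the RefSeq gene order of GRCm38.p6, taking 3 protein-coding genes on each side; this was chosen after the values of the 4 had been seen. Nes, the gene of the progenitor filament nestin and the next gene after Crabp2, fell by 0.94 ± 0.10 on the log2 scale (limma adjusted p = 7.71e-06). Mrpl24 on the other side of Crabp2 did not pass (-0.09 ± 0.08, adjusted p = 0.539). Among the named neighbours of Crabp1, which was higher in knockout, Acsbg1, an acyl-CoA synthetase, fell by 1.02 ± 0.14 (limma adjusted p = 0.000146) and Wdr61 by 0.19 ± 0.06 (0.0423), and Ireb2, an iron regulatory protein, did not pass (0.09 ± 0.11). Beside Aldh1a3, Chsy1 and Lrrk1 did not pass (-0.13 ± 0.14 and -0.11 ± 0.08). Beside Adh7, the lipid transfer gene Mttp fell by 0.41 ± 0.13 (limma adjusted p = 0.0341). Of the 6 neighbours of each gene, 3, 2, 2 and 1 had a tested name for Crabp1, Crabp2, Aldh1a3 and Adh7. Limma called 2, 1, 0 and 1 of these, each downward, against 43.6% of all tested named genes in either direction. Nothing is read from these counts.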
